A study of Mus musculus with 16 samples.

Results

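Nnt, Gabra2, Wdfy1, Entpd4, Ide and Cyfip2 are 6 mouse genes known or proposed to differ between substrains of the C57BL/6 laboratory mouse, and their RNA was followed across 16 whole-brain arrays. Every array probe that the scanner files name for one of these genes was used, which gave 13 probes of 55681 in all. Nnt had 3 probes, Gabra2 2, Wdfy1 4, Entpd4 2, and Ide and Cyfip2 1 each. The genes were picked by name, partly because Nnt, Gabra2 and Wdfy1 set the young wild-type arrays of these same data apart. The low or high levels in that group are therefore a description here and carry no test.

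The 4 groups of 4 arrays were Slc5a8-deficient mice at 18 months (old deficient), Slc5a8-deficient mice at 4 months (young deficient), wild-type mice at 18 months (old wild type) and wild-type mice at 4 months (young wild type). All 16 were male, all are given as C57BL/6J, and RNA came from the whole brain. The labels name neither the deficient allele, nor the colony of any group, nor whether the wild-type mice were littermates. Slc5a8 is a sodium-coupled carrier of lactate, pyruvate and ketone bodies. Its 1 probe stayed at background on each of the 16 arrays, so the array did not check the deficiency.

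Substrains of C57BL/6 are colonies bred apart from the same ancestors, in which separate mutations have become fixed. C57BL/6J mice lack several exons of Nnt, the mitochondrial enzyme that uses the proton gradient to make NADPH, and carry an intronic deletion in Gabra2 that lowers this GABA-A receptor subunit in the brain. C57BL/6N mice carry a serine-to-phenylalanine change in Cyfip2, a subunit of the actin-regulating WAVE complex. Copies of a segment with Ide, a protease that degrades insulin and amyloid-beta, have been reported within C57BL/6J colonies. Wdfy1 is a phosphoinositide-binding adaptor in Toll-like receptor signalling, and Entpd4 is a nucleoside diphosphatase of the Golgi and lysosome. The arrays read RNA and not these mutations, so the substrain of a mouse was not measured.

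The probes are 60 bases long and lie on the mm9 build. The parts shown are those that tell apart or join probes of the same gene with unlike or like patterns below. Capitals mark bases that a probe shares with the other overlapping probe, or the letters AATAAA, the usual signal for the end of a messenger RNA. The upstream pair of Wdfy1 probes, on the minus strand of chr1:79723042-79723121, share 40 bases. The files list several transcripts for them, transcript variant 2 first, and it was not determined which variants they read.
Wdfy1 A_55_P2070686, bases 11 to 40: ccattgttagCTGCTTTGAAGACAGAATGA
Wdfy1 A_52_P511821, bases 1 to 30: CTGCTTTGAAGACAGAATGACTCCTGTGGA
The downstream Wdfy1 probes, for which the files list transcript variant 1, lie further along the same strand, at chr1:79699969-79700028 and chr1:79698903-79698962.
Wdfy1 A_66_P118236, bases 1 to 30: aaattatatttaaagaagaattagagggag
Wdfy1 A_55_P2092730, bases 1 to 30: gagacgctgcaaatttttgttctttctact
The Gabra2 probes, on the minus strand at chr5:71352306-71352365 and chr5:71352275-71352334, share 29 bases and are not independent readings.
Gabra2 A_55_P2177351, bases 31 to 60: tTCAGCTCACTTCAATCATTGGAAACTACC
Gabra2 A_55_P2027900, bases 1 to 30: TCAGCTCACTTCAATCATTGGAAACTACCt
The Nnt probes differ in level pattern and lie on the minus strand at chr13:120124335-120124394 and chr13:120123318-120123377.
Nnt A_55_P2144285, bases 31 to 60: atctgagtAATAAAtgagttcataaaagtg
Nnt A_55_P2144280, bases 31 to 60: tcctactagcatccaatgataaaagccaag
The brighter Entpd4 probe lies on the plus strand at chr14:69984685-69984744.
Entpd4 A_55_P1992505, bases 31 to 60: aaataagaAATAAAtgcacacgttgaaaac
AATAAA was found on the probe strand in 2 of the 13 probes, against 10.06% of all 55681 probes, and its reverse complement TTTATT in 1 of the 13, against 3.739% of all. The third Nnt probe, A_55_P2008956 (chr13:120142585-120142644, minus strand), reads a cloned cDNA. The second Entpd4 probe (chr14:69967249-69967308, plus strand), the Ide probe (chr19:37343642-37343701, minus strand) and the Cyfip2 probe (chr11:46007360-46007419, minus strand) complete the set. Exon, intron and UTR positions on mm9 were not used here.

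Levels are log2 of the processed spot signal divided by the array's 75th percentile, so a level of 0 is the 75th percentile and a difference of 1 is a doubling. Levels of different probes are not set against each other. Of the 13 probes, 12 passed the filter on dim probes (well above background on each of the 4 arrays in 1 group or more), as did 33071 of all 55681. The slide and scan of all deficient arrays differed from those of all wild-type arrays, and on each slide the ages lay in separate rows. Old deficient and young wild-type arrays lay in row 2, and young deficient and old wild-type arrays in row 1. Slide and genotype, and row and age within a genotype, therefore cannot be told apart. Array 1 of the young deficient mice stood apart from the other 15 on the first principal component of all kept probes, which carried 28.67% of the variance, at a score of 117 against -32.06 to 30.97, and it had the lowest 75th-percentile signal, at 626 against 774 to 1348. Markers of neurons, astrocytes, oligodendrocytes, microglia and endothelium were well above background on every array. Markers of blood and of tissues at the border of the brain varied more. The kept pituitary markers (4 of 5, 1 of them above background on all arrays), centred on their mean over all arrays, ran from -4.70 to 2.89 in old deficient, -0.04 to 4.67 in young deficient, -4.05 to -1.18 in old wild-type and -1.23 to 6.44 in young wild-type brains. The 4 choroid plexus markers ran from -1.04 to 0.23 in old deficient, -0.52 to 0.08 in young deficient, -0.48 to 0.44 in old wild-type and -0.25 to 1.61 in young wild-type brains. In the blood and spinal cord lists, old deficient brains overlapped neither old wild-type nor young deficient brains. The part of all these markers in the results below was not tested. In whole brain, fewer cells that express a gene and less RNA per cell cannot be told apart.

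Wdfy1, the Toll-like receptor adaptor, gave the widest separation of the 6 genes. At downstream probe A_55_P2092730 the level was 2.42, 2.56, 2.67 and 1.67 in old deficient brains, 2.24, 2.67, 2.55 and 2.43 in young deficient brains, 2.53, 2.29, 2.61 and 2.48 in old wild-type brains, and 0.37, 0.46, 0.24 and 0.03 in young wild-type brains. All 4 young wild-type arrays lay below the other 12, with a gap of 1.21 between the highest of them and the lowest of the rest. The mean was 4.58-fold higher in young deficient brains than in young wild-type brains (difference 2.19), and the difference between old and young wild-type brains was 2.20. The second downstream probe, A_66_P118236, repeated the order of that one group. Its level was -1.17, -1.29, -1.14 and -2.23 in old deficient, -0.60, -1.32, -1.72 and -1.48 in young deficient, -1.30, -0.50, -1.22 and -1.25 in old wild-type, and -3.06, -3.53, -3.25 and -2.91 in young wild-type brains. Again the 4 young wild-type arrays lay below the rest, by 0.68, and the mean was 3.74-fold higher in young deficient than in young wild-type brains.

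The upstream probes of Wdfy1 did not share this pattern. At A_52_P511821 the level was -4.81, -4.94, -4.51 and -4.07 in old deficient, -4.90, -4.77, -5.33 and -5.30 in young deficient, -5.16, -5.05, -4.66 and -4.89 in old wild-type, and -3.94, -4.22, -3.87 and -4.11 in young wild-type brains. Here the young wild-type arrays were the high ones, overlapping only array 4 of the old deficient group. The difference was -1.04 between young deficient and young wild-type brains and -0.90 between old and young wild-type brains. These values shrank to -0.55 and -0.45 in the deposited value table and to -0.40 and -0.34 with another background correction (normexp). A_52_P511821 was well above background on each array but dim, at processed signals from 20.9 to 72.4. At A_55_P2070686, which shares 40 of its 60 bases with A_52_P511821, the young wild-type levels of -0.83, -0.92, -0.88 and -0.79 lay inside the range of the other 12 arrays, -1.25 to -0.15. Overlapping probes of the same gene therefore gave unlike values in young wild-type brains. Old deficient array 4 was the lowest of its group at both downstream probes and the highest at A_52_P511821, on the side of the young wild-type arrays each time.

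**Figure D1:**
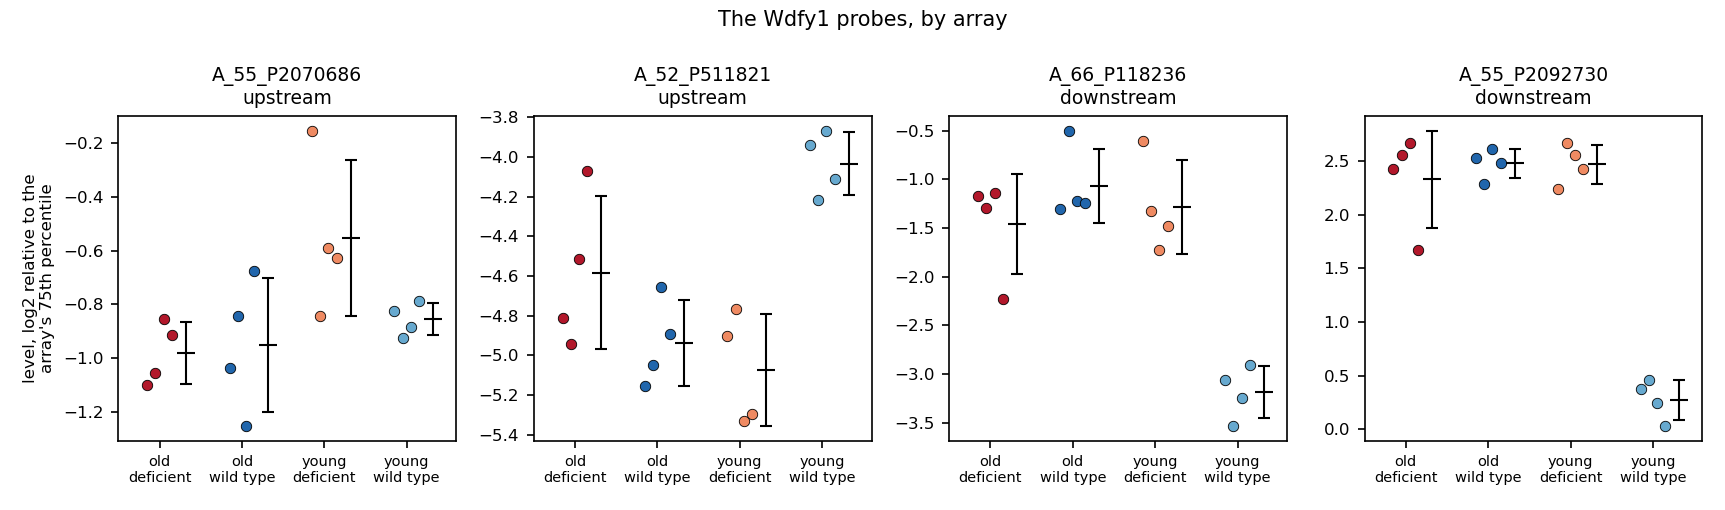
Level of the 4 Wdfy1 probes (log2, 0 at the array's 75th percentile) on each of the 4 arrays per group, as points, with the group mean and SD beside them as bars. The young wild-type points lie below all others at both downstream probes, between 0.03 and 0.46 at A_55_P2092730, and not at the upstream probes.

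Nnt, the mitochondrial NADPH-making enzyme, was also lowest in young wild-type brains at its bright probe. The level of A_55_P2144285 was 1.79, 1.88, 2.42 and 2.41 in old deficient, 1.59, 1.96, 2.37 and 2.18 in young deficient, 2.51, 1.92, 2.52 and 2.48 in old wild-type, and 1.26, 1.60, 1.41 and 0.96 in young wild-type brains. The highest young wild-type array and the lowest young deficient array crossed by 0.01, so the groups overlapped. The mean was 1.64-fold higher in young deficient than in young wild-type brains (difference 0.72) and 2.07-fold higher in old than in young wild-type brains (difference 1.05). All 16 arrays were well above background at this probe, so Nnt RNA that carries the bases of this probe was present in every group given as C57BL/6J.

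The probe A_55_P2144280, 1011 bases further along the Nnt transcript, showed another split and did not pass the filter. Its level was -5.06, -5.02, -5.33 and -5.87 in old deficient, -5.74, -7.94, -5.24 and -5.27 in young deficient, -6.88, -7.67, -7.59 and -7.69 in old wild-type, and -7.53, -8.44, -6.57 and -7.16 in young wild-type brains. It was well above background on 3 of 4 old deficient and 2 of 4 young deficient arrays and on 0 of 4 in each wild-type group. The old deficient mean was 1.42-fold higher than a bound on the old wild-type signal, and no fold can be given at 4 months. That mean includes old deficient array 4 (-5.87), itself not well above background, so the fold is not a strict lower limit. The dim probe A_55_P2008956 was well above background on 4 old deficient, 2 young deficient, 3 old wild-type and 2 young wild-type arrays. Its levels overlapped, at -5.62 to -4.85 in old deficient, -6.99 to -4.83 in young deficient, -5.48 to -4.53 in old wild-type and -7.31 to -5.41 in young wild-type brains.

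Gabra2, the alpha-2 subunit of the GABA-A receptor, spread over all 4 groups. At A_55_P2177351 the level was 1.76, 1.78, 1.40 and 1.35 in old deficient, 0.62, 1.13, 1.09 and 1.19 in young deficient, 2.04, 1.86, 2.18 and 1.88 in old wild-type, and 0.11, 0.87, 0.39 and 0.54 in young wild-type brains. Ordered by mean, the groups ran from old wild type (1.99) through old deficient (1.57) and young deficient (1.01) to young wild type (0.48). Young deficient and young wild type, neighbours in that order, overlapped, while the old groups did not overlap each other or the young deficient group. The mean was 2.85-fold higher in old than in young wild-type brains (difference 1.51) and 1.44-fold higher in young deficient than in young wild-type brains (difference 0.53). At the overlapping probe A_55_P2027900 the level was 1.02, 1.19, 0.80 and 0.69 in old deficient, -1.39, 0.56, 0.46 and 0.61 in young deficient, 1.40, 0.53, 1.61 and 1.28 in old wild-type, and -0.72, 0.45, -0.19 and -0.97 in young wild-type brains. Young deficient array 1, the array that stood apart, was the lowest of all 16 at this probe, and there the young wild-type group overlapped the young deficient one.

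Entpd4, Ide and Cyfip2 moved little. The Entpd4 probe A_52_P582907 read -2.06, -2.06, -1.95 and -1.92 in old deficient, -2.29, -1.92, -2.07 and -2.30 in young deficient, -2.29, -2.27, -1.94 and -2.16 in old wild-type, and -2.63, -2.41, -2.45 and -2.41 in young wild-type brains. Its young wild-type arrays lay below the other 12 by a gap of 0.11, with a mean difference of 0.33 between young deficient and young wild-type brains. The brighter Entpd4 probe, A_55_P1992505, ran from 3.91 to 4.04 in old deficient, 4.03 to 4.47 in young deficient, 3.74 to 4.00 in old wild-type and 3.73 to 3.98 in young wild-type brains, with young deficient array 1 the highest. A near-identical gene copy, Entpd4b, lies on the same chromosome, and the array may read both. Ide averaged 0.44 ± 0.09 in old deficient, 0.53 ± 0.20 in young deficient, 0.44 ± 0.09 in old wild-type and 0.47 ± 0.13 in young wild-type brains (SD, n = 4 each). Cyfip2 averaged 5.38 ± 0.04 in old deficient, 5.36 ± 0.18 in young deficient, 5.36 ± 0.10 in old wild-type and 5.19 ± 0.18 in young wild-type brains. All groups overlapped at both genes. The Cyfip2 change of C57BL/6N is a change of amino acid, which a level of RNA does not read.

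**Figure D2:**
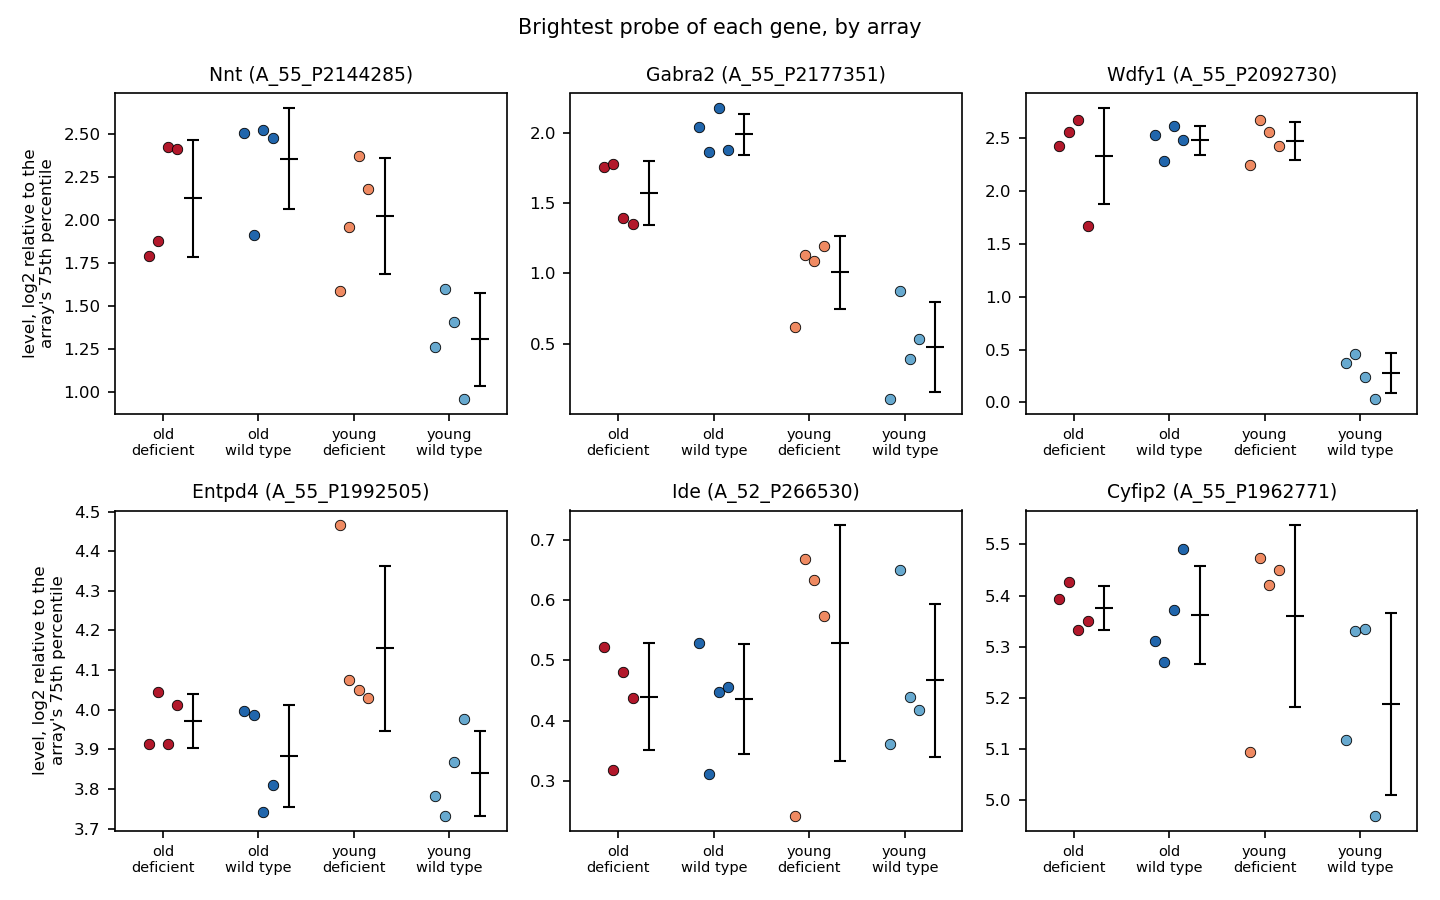
Level of the brightest probe of each gene (log2 relative to the array's 75th percentile, a scale of its own for each gene) on each array, with the group mean and SD as bars. Young wild-type brains are low for Nnt (0.96 to 1.60), Gabra2 (0.11 to 0.87) and Wdfy1 (0.03 to 0.46). They lie below all other arrays only for Wdfy1. They overlap young deficient brains for Nnt and Gabra2, and other groups for Entpd4, Ide and Cyfip2.

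Across all 33071 kept probes, 116 (0.351%) had their 4 young wild-type arrays outside the range of the other 12, 42 below (0.127%) and 74 above (0.224%). Of the 12 kept probes of the 6 genes, the downstream probes of Wdfy1 and Entpd4 A_52_P582907 were among the 42. By the width of the gap the Wdfy1 probes ranked 2 and 3 and the Entpd4 probe 35 of all probes, after a probe of S100a5, a calcium-binding protein, which was higher in young wild-type brains. Groups did not overlap between young deficient and young wild-type brains at 5 of the 12 probes (9.39% of all probes) and between old and young wild-type brains at 7 of the 12 (3.51% of all). The genes were chosen on these differences, which share the young wild-type arrays, and nothing is read from the counts.

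Differences between the other groups were tested with limma, adjusted by Benjamini and Hochberg over all 33071 probes, with a call at an adjusted p under 0.05. The young wild-type arrays are in neither difference, but all 16 arrays enter the estimate of the spread. Between old deficient and old wild-type brains 0 of the 12 probes were called, where 1.36% of all probes were, and between old and young deficient brains 0 of 12, where 2.1% of all were. The median difference of the 12 was -0.09 at 18 months (0.01 over all probes) and 0.06 with age in deficient mice (0.00 over all probes). At an unadjusted p under 0.05 the numbers were 1 of 12, where 10% of all probes were, and 3 of 12, where 20.4% of all were. Groups did not overlap at 1 of 12 probes in the first comparison (8.03% of all probes) and at 3 of 12 in the second (17.4% of all). At Wdfy1 A_55_P2092730 the difference was -0.15 ± 0.18 between old deficient and old wild-type brains (SE, 95% interval -0.54 to 0.24, limma adjusted p = 0.90) and -0.14 ± 0.18 between old and young deficient brains (95% interval -0.53 to 0.25, limma adjusted p = 0.67). Both differences turned to 0.07 and 0.08 without old deficient array 4.

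The probe nearest a call was Gabra2 A_55_P2177351. Its level was lower in old deficient brains, with a difference from old wild-type brains of -0.42 ± 0.17 (95% interval -0.78 to -0.06, limma adjusted p = 0.38), with all 4 old deficient arrays below all 4 old wild-type arrays. It was higher in old than in young deficient brains by 0.56 ± 0.17 (95% interval 0.20 to 0.93, limma adjusted p = 0.093), and the groups did not overlap. The overlapping probe A_55_P2027900 differed by 0.86 ± 0.41 between old and young deficient brains (limma adjusted p = 0.25), and by 0.38 without young deficient array 1. The upstream probes of Wdfy1 went opposite ways with age in deficient mice. A_55_P2070686 differed by -0.43 ± 0.14 (limma adjusted p = 0.12) and A_52_P511821 by 0.49 ± 0.19 (limma adjusted p = 0.16), values that became -0.30 without young deficient array 1 and 0.32 without old deficient array 4.

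Nnt A_55_P2144285 differed by -0.23 ± 0.21 between old deficient and old wild-type brains (95% interval -0.67 to 0.21, limma adjusted p = 0.84). Entpd4, Ide and Cyfip2 were bounded more closely. At 18 months the 95% intervals of the Entpd4 probes ran from -0.07 to 0.40 at A_52_P582907 and from -0.15 to 0.32 at A_55_P1992505, and with age in deficient mice that of A_55_P1992505 ran from -0.42 to 0.05.

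**Figure D3:**
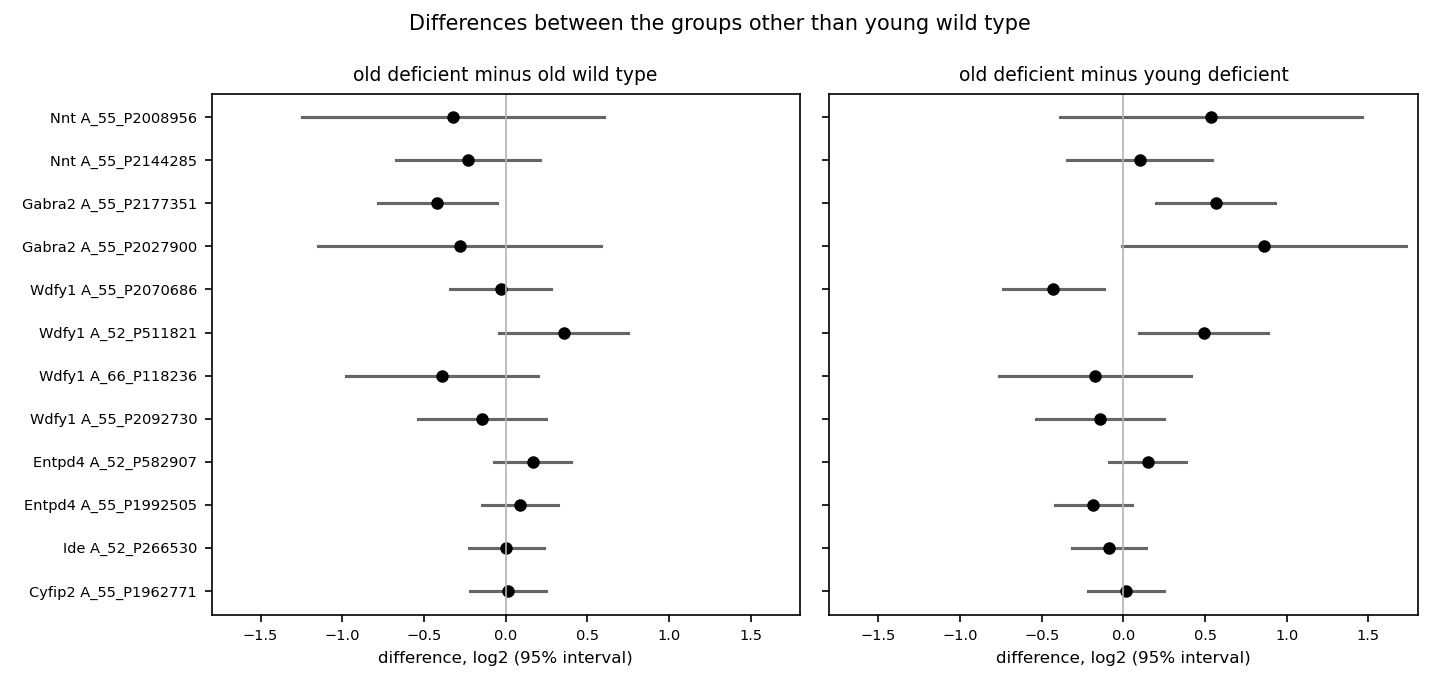
Difference (log2, point) and its 95% interval (line) for the 12 kept probes in the tested comparisons, old deficient minus old wild-type brains on the left and old deficient minus young deficient brains on the right. No probe was called, and Gabra2 A_55_P2177351 has an interval clear of 0 in both comparisons, from -0.78 to -0.06 and from 0.20 to 0.93.

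Other genes with known sequence differences between C57BL/6 substrains were Crb1, Nlrp12, Mmrn1, Dock2, Adcy5 and Fgfbp3. No probe of Crb1, Nlrp12 or Mmrn1 passed the filter on dim probes, so these genes were not tested. Both Mmrn1 probes, for an extracellular matrix protein of platelets and endothelium, stayed at background on every array. Crb1, a polarity protein of the retina, had a probe (A_51_P478458) above background on 0 of 4 old deficient (-8.38 to -6.37), 0 of 4 young deficient (-7.67 to -6.36), 3 of 4 old wild-type (-6.27 to -5.00) and 3 of 4 young wild-type arrays (-6.44 to -5.14). Nlrp12, an innate immune sensor, was above background on 2 of 4 young deficient arrays only. The tested probes of Dock2, Adcy5 and Fgfbp3 were not called in either comparison. Limma called 0 of their 5 tested probes at 18 months (1.36% of all probes) and 0 of 5 with age in deficient mice (2.1% of all). In either comparison 0 of 5 had an unadjusted p under 0.05, where 10% and 20.4% of all probes had. With 5 probes nothing is read from these counts. The medians were 0.18 and 0.23, against 0.01 and 0.00 over all probes.

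Genes that act with the 6 were read from lists of their pathways. Of the mitochondrial enzymes that make or spend NADPH (13 genes, 21 probes), 0 were called at 18 months and 0 with age in deficient mice, with medians of 0.05 and -0.07 and with 4 and 0 probes at an unadjusted p under 0.05 (10% and 20.4% of all probes). Of the other GABA-A receptor genes (14 genes, 20 probes), 1 was called at 18 months and 0 with age, with medians of -0.07 and 0.00 and with 4 and 6 at an unadjusted p under 0.05. The called probe was Gabrg3 A_55_P2053251, for a gamma subunit, at -2.06 ± 0.21 in old deficient brains against -3.00 ± 0.20 in old wild-type brains (SD, n = 4 each), a difference of 0.94 ± 0.21 (limma adjusted p = 0.039). The other kept Gabrg3 probes did not follow it, at 1.25 and -4.43 in old deficient brains against 1.59 and -4.08 in old wild-type brains. The call was lost with any of 9 arrays left out (old deficient 1, 2 and 4, each of the old wild-type arrays, young wild-type 2 and 3), with adjusted p from 0.021 to 0.13 over all 16, with no filter on dim probes and with the replicate number as a block (limma adjusted p = 0.066).

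Among the genes of endosomal Toll-like receptor signalling (9 genes, 12 probes), 0 were called at 18 months and 1 with age in deficient mice, with medians of 0.03 and 0.09 and with 0 and 3 at an unadjusted p under 0.05. Tlr4, the lipopolysaccharide receptor, averaged -3.04 ± 0.15 in old and -3.64 ± 0.21 in young deficient brains (SD, n = 4 each), a difference of 0.60 ± 0.12 (limma adjusted p = 0.017). The call was lost without old deficient array 2 (limma adjusted p = 0.072, from 0.013 to 0.072 over the 16 arrays left out in turn), with no filter, with normexp and with only the 2 groups compared. Of the nucleotidases related to Entpd4 (8 genes, 10 probes) 0 were called in both comparisons, with medians of -0.01 and -0.04 and with 3 and 1 at an unadjusted p under 0.05.

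Of the genes that degrade or bind insulin and amyloid-beta (11 genes, 18 probes), 0 were called at 18 months and 1 with age, with medians of 0.03 and -0.04 and with 0 and 6 at an unadjusted p under 0.05. The insulin receptor Insr rose with age in deficient brains at probe A_55_P2172566, to -2.85 ± 0.09 in old deficient against -3.56 ± 0.12 in young deficient brains (SD, n = 4 each), a difference of 0.71 ± 0.11 (limma adjusted p = 0.0054). Of the WAVE complex and its partners, which work with Cyfip2 (14 genes, 24 probes), 0 were called in both comparisons, with medians of 0.00 and 0.06 and with 2 and 1 at an unadjusted p under 0.05. Over the 7 lists 1 of 110 tested probes was called at 18 months and 2 of 110 with age in deficient mice, beside 1.36% and 2.1% of all probes.

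Genes next to the 6 were taken as every probe within 1 Mb of a member probe, 106 kept probes in all. The young wild-type arrays lay outside the range of the other 12 at 0 of these 106, where 0.351% of all probes were. In the tested comparisons 2 of 106 were called at 18 months, beside 1.36% of all probes, and 2 of 106 with age in deficient mice, beside 2.1% of all. At an unadjusted p under 0.05 in limma there were 11 of 106 at 18 months, where 10% of all probes were. With age in deficient mice there were 35 of 106, where 20.4% of all were, and 14 of these lay near Entpd4 (36 probes). Whether the neighbours differ as a set from all probes was not tested. Both calls at 18 months were probes of Tmem267 (named Gm7120 on the array), a transmembrane protein. They lie 141609 and 135051 bases from the nearest Nnt probe. Gm7120 A_55_P2183914 averaged -2.70 ± 0.23 in old deficient, -3.30 ± 0.70 in young deficient, -1.07 ± 0.28 in old wild-type and -0.90 ± 0.12 in young wild-type brains (SD, n = 4 each). Its difference between old deficient and old wild-type brains was -1.63 ± 0.26 (limma adjusted p = 0.0042). Gm7120 A_55_P2014100 fell likewise, by a difference of -2.12 ± 0.44 (limma adjusted p = 0.025), a call lost with any of 6 arrays left out (old deficient 2, 3 and 4, old wild-type 1, 2 and 3), with adjusted p from 0.00098 to 0.083 over all 16, and with no filter on dim probes. Deficient brains were low at both ages at A_55_P2183914, where the highest deficient array (-2.32) lay below the lowest wild-type array (-1.34). The other kept Gm7120 probes, to which the files give no position, did not share a direction. A_66_P121583 averaged -1.02 ± 0.24 in old deficient brains against -0.26 ± 0.36 in old wild-type brains, and A_55_P2120866, the brightest, averaged 0.67 ± 0.20 in old deficient brains against 0.40 ± 0.44 in old wild-type brains (SD, n = 4 each).

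With age in deficient mice Lgi3, a secreted neuronal protein encoded 952875 bases from the nearest Entpd4 probe, averaged 2.85 ± 0.26 in old and 3.42 ± 0.16 in young deficient brains (SD, n = 4 each), a difference of -0.56 ± 0.14 (limma adjusted p = 0.048). Pcgf5, a Polycomb subunit encoded 808522 bases from the Ide probe, averaged -1.29 ± 0.13 in old and -1.93 ± 0.21 in young deficient brains at A_52_P198473, a difference of 0.64 ± 0.15 (limma adjusted p = 0.042). Both calls were lost with no filter, with quantile normalization, with only the 2 groups compared and with the replicate number as a block (limma adjusted p = 0.075 for Lgi3 and 0.08 for Pcgf5), and adjusted p with 1 array left out ran from 0.045 to 0.14 for Lgi3 and from 0.032 to 0.12 for Pcgf5. The other kept Pcgf5 probes, both brighter, were not called, at 1.87 and 1.53 in old deficient against 1.32 and 0.94 in young deficient brains. The near neighbours Fgfbp3 of Ide, and Slc25a37 and Loxl2 of Entpd4, were not called. Fgfbp3, a carrier of fibroblast growth factors that shares the reported extra segment with Ide, averaged 0.11 ± 0.13 in old deficient, 0.23 ± 0.23 in young deficient, -0.07 ± 0.11 in old wild-type and -0.05 ± 0.23 in young wild-type brains (SD, n = 4 each), with overlapping groups at each age. Slc25a37, a mitochondrial iron importer, averaged 1.47 ± 0.15 in old deficient, 1.27 ± 0.20 in young deficient, 1.41 ± 0.06 in old wild-type and 1.36 ± 0.16 in young wild-type brains at its brighter probe. Loxl2, a collagen cross-linking enzyme, averaged -3.50 ± 0.22 in old deficient and -3.12 ± 0.19 in young deficient brains at A_52_P480351. There it averaged -3.35 ± 0.35 in old wild-type and -2.75 ± 0.14 in young wild-type brains. At its brighter probe, A_55_P2131348, the means in the same order were -3.13, -2.65, -2.92 and -2.83.

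The probes of other genes most like each gene's brightest probe over the 16 arrays are given as Pearson's r, a description in which all points share arrays, slides and processing. For Wdfy1 they were Cd209d (r = 0.80), Mtor (0.80) and Hsd17b11 (0.80), none over 0.9. For Nnt they were Spdya (0.82), Ctss (0.82) and Gabra2 (0.79), and for Gabra2 they were Map3k14 (0.86), Phf13 (0.85) and Lrrn4 (0.83). Ide was nearest Nectin3 (0.90, Pvrl3 on the array), Rapgef1 (0.86) and Aar2 (0.86). Cyfip2 was nearest Serpini1 (0.93), Mgat3 (0.92) and Vps29 (0.92). Entpd4 had 50 probes over 0.9, led by Dhx34, Slc35c2 and Mvk (0.95 each), and its own pattern was led by young deficient array 1.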

How the data were processed

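Whole-brain RNA of 16 male mice was labelled with Cy3 and hybridised to Agilent arrays, per the labels' protocols. Groups came from the sample titles, and the strain and age tags are interchanged in the labels. The deposited spot intensities were read and background-subtracted by Agilent Feature Extraction 10.7.3.1, per the file headers. The deposited value table holds log2 values, and limma is named, with no version, in the submitters' processing notes. It served as an alternative.

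From the 59305 non-control spots per array, outlier spots were dropped, spots of a probe averaged, and log2 processed signal centred on each array's 75th percentile. Probes well above background on each of the 4 arrays in 1 group or more were kept. The 4-group model used limma 3.58.1 (R 4.3.3, with version 1.17.8 of data.table), after a test on simulated data, with 12 residual and 2.94 prior degrees of freedom. Gene symbols come from the files, updated by unversioned RefSeq accession. A bound on a fold sets the bright group's mean against the higher of the dim probe and the lowest probe well above background, per array.

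The members and lists were chosen with earlier results of these data known. The text names every member probe, 3 most alike genes per member, called neighbours and list members (at most 4 a list), and Fgfbp3, Slc25a37 and Loxl2. S100a5, Crb1, Mmrn1 and Nlrp12, and the other probes of Gabrg3, Gm7120, Insr and Pcgf5, were added after their values were seen. A gene of these lists is not reported here. The design text calls the arrays biological replicates. P-values measure the spread between them, and the number of arrays limits precision. Alternatives were normexp with offset 50, quantile normalization, the deposited values, 1 probe per gene, other filters, only the groups compared, a replicate block and leaving out each array.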

Additional observations from a re-analysis of the deposited data

Results flagged for a closer look

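Of 52 sets of 4 arrays (13 probes in 4 groups), 7 held an array far from the others of its group by Dixon's test. The share over all probes was not computed. The sets share arrays and some probes overlap, so nothing is read from the count. Young deficient array 1 was marked at Entpd4 A_55_P1992505 (4.47), Gabra2 A_55_P2027900 (-1.39) and Cyfip2 A_55_P1962771 (5.09). Old wild-type array 2 was marked at Nnt A_55_P2144285 (1.92) and Wdfy1 A_66_P118236 (-0.50). Old deficient array 4 was marked at Wdfy1 A_66_P118236 (-2.23), and old wild-type array 1 at Nnt A_55_P2144280 (-6.88).

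The mean genotype difference had opposite signs at 4 and 18 months at 8 of the 12 kept probes. The mean age difference had opposite signs in deficient and wild-type mice at 4 of the 12. The share over all probes was not computed, so nothing is read from these counts. In 3 of the cases of opposite sign each deficient or old array also lay on its side of the mean it was set against. The genotype difference of Gabra2 A_55_P2177351 was 0.53 at 4 months and -0.42 at 18 months. That of Wdfy1 A_66_P118236 was 1.90 and -0.39. The age difference of Wdfy1 A_52_P511821 was 0.49 in deficient and -0.90 in wild-type mice. These differences between differences were not tested, since the genes were chosen on the young wild-type arrays.

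Nnt A_55_P2144280, left out by the filter, was 1.42-fold higher in old deficient brains than a bound on its signal in old wild-type brains. It was above background on 3 of 4 old deficient arrays and on 0 of 4 arrays in each wild-type group.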

How the results depend on the processing

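The counts of 0 called member probes at 18 months and with age in deficient mice stayed at 0 under every alternative run and with each array left out (0 to 0). The replicate numbers did not pair the arrays: over 24 same-number pairs the correlation of deviations from group means ran from -0.42 to 0.25, with 6 over 0.1, and 4 of 16 arrays correlated best with their own number. With the replicate block the member counts were 0 and 0. It left 0 list probes called at 18 months and 0 neighbouring probes with age in deficient mice. The setting of 1 probe per gene kept each gene's brightest probe. That setting left out the called probes of Gabrg3, Insr, Gm7120 and Pcgf5, so its lower counts below do not test those calls. The list probes called at 18 months (main 1) numbered 0 with 1 probe per gene and with no filter, 2 with only the 2 groups compared, and 0 to 4 with 1 array left out (4 without young deficient array 1). With age in deficient mice (main 2) they numbered 1 with 1 probe per gene, with no filter and with only the 2 groups compared, and 1 to 3 with 1 array left out. The neighbouring probes called at 18 months (main 2) numbered 0 with 1 probe per gene, 1 with no filter and 1 with the filter on all 16 arrays, and 1 to 3 with 1 array left out. With age in deficient mice (main 2) they numbered 1 with 1 probe per gene, 4 in the deposited value table, 5 with normexp and 0 with no filter, only the 2 groups or quantile normalization, and 0 to 4 with 1 array left out.

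Signs of tested differences turned where the reported difference lay between -0.18 and 0.10. At 18 months Insr A_55_P2172566 became -0.0184 in the deposited table and -0.0519 with normexp, and Wdfy1 A_55_P2070686 became 0.0069 and 0.0081. With 1 array left out, differences at 18 months ran from -0.0157 to 0.0576 for Cyfip2, -0.0379 to 0.0444 for Ide, -0.0104 to 0.136 for Insr, -0.267 to 0.0106 for Loxl2 A_52_P480351, -0.131 to 0.0611 for Wdfy1 A_55_P2070686 and -0.260 to 0.0735 for Wdfy1 A_55_P2092730. With age in deficient mice they ran from -0.0726 to 0.0535 for Cyfip2, -0.0458 to 0.215 for Nnt A_55_P2144285, -0.254 to 0.0793 for Wdfy1 A_55_P2092730 and -0.322 to 0.0805 for Wdfy1 A_66_P118236. Among the differences from young wild-type brains, with 1 array left out, Nnt A_55_P2008956 ran from -0.208 to 0.604 for young deficient minus young wild type, and Ide from -0.0661 to 0.0303 and Wdfy1 A_55_P2070686 from -0.188 to 0.00448 for old minus young wild type. The cause of these changes was not tested. Signal near background limits the dim Nnt probes and Crb1, Mmrn1 and Nlrp12, and Wdfy1 A_52_P511821 was dim too.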
